A study of Mus musculus with 4 samples.

Results

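The 9 genes described here encode transcription factors of the foregut epithelium, *Foxa1*, *Foxa2*, *Foxa3*, *Nkx2-1*, *Sox2*, *Trp63*, *Foxp1*, *Foxp2* and *Foxe1*, and were measured by RNA-seq of the mouse larynx at E10.5. The genes were taken by name from the deposited tables, which held all 9 among 46983 genes. Each of the 4 libraries came from 3 pooled larynxes (32 to 35 somites), 2 pools from embryos carrying the germline null allele *Shh*tm1amc and 2 pools from wild-type (WT) embryos. The null allele was kept on a Swiss Webster background. The mutant pools are *Shh*-/- in the study, while their sample labels write Shh+/-, and the study's genotype is used here. The allele is null in every tissue of the embryo and not in the foregut alone, and each pool mixed laryngeal epithelium with mesenchyme, nerves and vessels, so a level is that of the whole larynx.

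The forkhead factors FOXA1, FOXA2 and FOXA3 open chromatin for other factors and are classical markers of endoderm. NKX2-1 marks the respiratory side of the anterior foregut and the thyroid, SOX2 marks the dorsal, esophageal side, and p63, the product of *Trp63*, marks basal progenitors of stratified epithelia. FOXP1 and FOXP2 act in airway epithelium and also in heart, neurons and muscle, and FOXE1 acts in the thyroid primordium and the pharyngeal and oral epithelium. *Shh* is itself made by foregut epithelium, and HH signaling is received largely by the mesenchyme around it.

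Levels are given in TPM, the share of a library's transcripts scaled to 1000000, a length-corrected measure that allows genes to be set beside one another. Differences are log2 fold changes of TPM + 1, *Shh*-/- minus WT, on which low genes appear less different than they are. The 16972 genes whose mean over the 4 libraries reached 1 TPM were compared with limma, an empirical Bayes linear model, and p-values were adjusted by the Benjamini-Hochberg method at a threshold of 0.05. Aligned sequence came to 1.37 and 3.13 Gb in *Shh*-/- larynx and to 2.85 and 2.97 Gb in the WT pools, and the RNA integrity number ranged from 7.7 to 9.0. *Shh* measured 10.4 and 10.8 TPM in *Shh*-/- larynx against 23.7 and 42.1 TPM in WT, and the HH target gene *Ptch1* 12.9 and 13.8 TPM against 57.8 and 55.1 TPM. Values summed over a gene do not show which of its exons were read, so the *Shh* level does not separate the null transcript from the normal one. A listed 0 need not mean absence, since the 37 mitochondrial genes have no value above 0 anywhere.

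Of the 9 genes, 8 passed the filter on low TPM and *Foxa3* did not. None of the 8 passed the adjusted threshold in limma, where 0.725% of all tested genes did (0.56% higher and 0.165% lower in the mutant pools). Before adjustment 5 of the 8 had a p under 0.05, all of them lower in *Shh*-/- larynx, against 24.8% of all tested genes in either direction and 7.22% in that one. Of the 8, 7 had a fold change below 0, as did 41.7% of all genes, and 4 had a log2 fold change of −1 or below, as did 2.09%. The groups did not overlap in 6 of the 8, all of them lower in *Shh*-/-, against 60.7% of all genes in either direction and 22.7% in that one. The median log2 fold change of the 8 was −0.90, while that of all tested genes was 0.08.

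**Figure D1:**
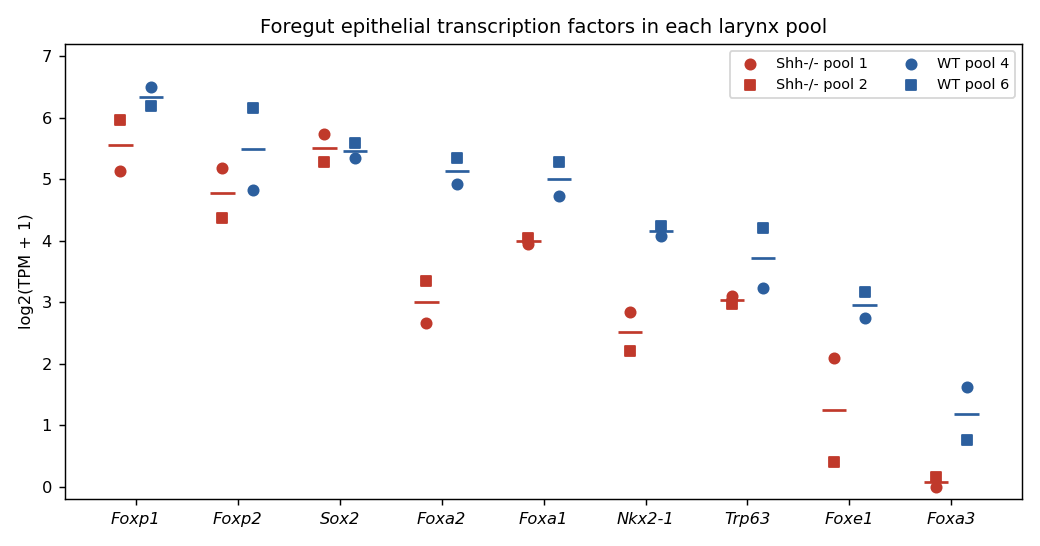
TPM of each of the 9 transcription factor genes in the 4 pools, on a log2(TPM + 1) axis, with 1 point per pool and short lines at the group means of the log2 values. Both *Shh*-/- points of *Foxa2* (5.34 and 9.12 TPM) and *Nkx2-1* (6.16 and 3.61 TPM) sit below both WT points, while the *Sox2* points of the 2 groups overlap.

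The sequence before the start of 3 genes is shown because their levels differed most clearly between the pools, as the 250 bases up to the start in the RefSeq table for GRCm38.p6. The table held 6 of the 9 genes, and *Trp63*, *Foxp2* and *Foxe1* were not in it. The motifs looked for on both strands were the GLI core GACCACC, the FOXA motif GTAAACA, the SOX motif CATTGT and the NKX2-1 motif CTCAAG. Capitals mark a match as it reads along the gene, and no match overlapped another in these windows. The windows are *Foxa1* at chr12:57546112-57546361, *Foxa2* at chr2:148046970-148047219 and *Nkx2-1* at chr12:56536909-56537158, all on the minus strand.
Foxa1: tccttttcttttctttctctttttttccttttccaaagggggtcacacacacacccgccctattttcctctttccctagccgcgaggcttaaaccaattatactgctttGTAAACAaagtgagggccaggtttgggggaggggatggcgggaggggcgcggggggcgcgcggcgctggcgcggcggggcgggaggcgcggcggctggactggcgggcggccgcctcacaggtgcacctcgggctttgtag
Foxa2: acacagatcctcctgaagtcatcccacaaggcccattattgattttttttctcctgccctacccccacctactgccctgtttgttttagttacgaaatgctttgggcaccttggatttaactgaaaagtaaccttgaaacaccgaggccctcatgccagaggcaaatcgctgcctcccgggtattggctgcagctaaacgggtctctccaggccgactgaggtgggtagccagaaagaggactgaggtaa
Nkx2-1: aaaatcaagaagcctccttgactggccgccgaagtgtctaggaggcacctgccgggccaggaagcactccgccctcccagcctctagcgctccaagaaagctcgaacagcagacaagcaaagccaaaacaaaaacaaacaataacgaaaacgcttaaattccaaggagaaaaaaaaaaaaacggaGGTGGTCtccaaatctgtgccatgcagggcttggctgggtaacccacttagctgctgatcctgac
The *Foxa1* window holds a FOXA motif 141 bases before the start, a motif that 3.166% of 32851 windows hold. The *Nkx2-1* window holds GGTGGTC, the GLI core read on the other strand, 65 bases before the start, as do 2.344% of windows on either strand. *Foxa2* has 3 windows in the table, and the one at its outer start, printed above, holds no match. The window of the start at 148045464 holds CTTGAG, the NKX2-1 motif read on the other strand, 187 bases before it, a motif that 13.327% of windows hold. The *Foxa3* window holds the same CTTGAG 131 bases before its start. Of the *Foxp1* windows, the one of the start at 99028298 holds the SOX motif CATTGT 85 bases before it, as do 10.691% of windows on either strand. The *Sox2* window holds no match. For *Foxa3* and *Sox2* the bases just after the start were not found in a GENCODE M21 transcript of the gene. These are matches of letters in a short window and show no binding.

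*Foxa2* lies at chromosome 2, 148042877 to 148046969, minus strand (mm10). It was measured at 5.34 and 9.12 TPM in *Shh*-/- larynx and at 29.2 and 39.8 TPM in the WT pools. Both mutant pools were below both WT pools by a wide margin. The log2 fold change was −2.13 (SE 0.29, 95% confidence interval −2.87 to −1.39, adjusted p = 0.0602 in limma), which placed *Foxa2* at rank 200 by p. *Foxa1* (chromosome 12, 57540631 to 57546121, minus strand), its close relative, was at 14.5 and 15.6 TPM in *Shh*-/- larynx and at 25.6 and 37.8 TPM in WT. Here too the groups did not overlap, with a smaller difference of −1.0 (SE 0.21, adjusted p = 0.102 in limma). *Foxa2* stood at 1.14 and 1.05 times the *Foxa1* level in the WT pools and at 0.368 and 0.586 times that level in *Shh*-/- larynx. The balance of the 2 genes was tilted away from *Foxa2* in both mutant pools, a difference that was not tested.

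*Foxa3* (chromosome 7, 19013284 to 19023538, minus strand), the member of the family most associated with gut and liver, was close to the limit of detection. It was listed at 0 and 0.116 TPM in *Shh*-/- larynx and measured 2.06 and 0.690 TPM in WT. The WT pools were both higher, at a mean read coverage of 2.93-fold and 1.03-fold along the gene.

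*Nkx2-1* lies at chromosome 12, 56531958 to 56536908, minus strand. Its levels were 6.16 and 3.61 TPM in *Shh*-/- larynx and 15.9 and 17.9 TPM in WT. The 2 WT pools were close to each other and well above both mutant pools. The log2 fold change was −1.64 (SE 0.25, 95% confidence interval −2.29 to −0.98, adjusted p = 0.0715 in limma), at rank 329 by p.

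*Sox2*, its dorsal counterpart, lies at chromosome 3, 34650405 to 34652461, plus strand. It measured 52.2 and 37.9 TPM in *Shh*-/- larynx and 39.5 and 47.3 TPM in WT. The lowest and the highest of the 4 values were both from mutant pools, so the groups overlapped. The log2 fold change of 0.04 (SE 0.19, adjusted p = 0.910 in limma) had a 95% confidence interval of −0.46 to 0.54, and its sign turned under quantile normalization, median centring and the GC and length correction. *Nkx2-1* was at 0.403 and 0.379 times the *Sox2* level in the WT pools and at 0.118 and 0.0951 times it in *Shh*-/- larynx. *Foxa2* likewise went from 0.738 and 0.841 times the *Sox2* level in WT to 0.102 and 0.241 times in the mutant pools. *Sox2* is also made by neural progenitors and glia, whose genes were at other levels in the 2 groups. Of 11 neural progenitor genes 5 were tested, 3 higher and 2 lower with a median of 0.66 (0.19 with no filter and 1.23 with a pseudocount of 0.1) and 0 past the threshold in limma, with summed levels over the list of 38.2 and 36.5 TPM in *Shh*-/- larynx and 27.8 and 12.4 TPM in WT. *Sox3* was the highest of the pan-neural SOX genes on that list at 1.58 and 1.43 TPM against 0.610 and 0.558 TPM, and 2 of the 11 genes were listed at 0 in all libraries. Of 6 neural crest glia genes the 5 tested were all higher, with a median of 0.60 and 0 past the threshold, and the list summed to 111 and 90.1 TPM in *Shh*-/- larynx and to 61.9 and 49.1 TPM in WT, with *Sox10* at 34.0 and 28.6 TPM against 18.2 and 11.7 TPM. Their part in the *Sox2* level was not tested.

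**Figure D2:**
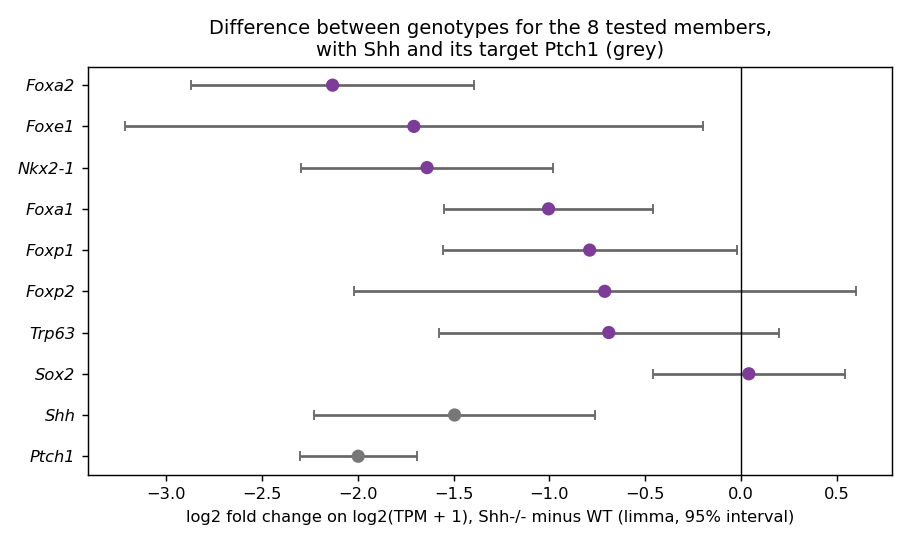
Log2 fold change (*Shh*-/- minus WT, log2 of TPM + 1) of the 8 tested genes and, in grey, of *Shh* and *Ptch1*, with points for the limma estimate and bars for its 95% confidence interval. The interval of *Foxa2* runs from −2.87 to −1.39 and that of *Sox2* spans 0, from −0.46 to 0.54.

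*Trp63* (chromosome 16, 25683763 to 25892102, plus strand) was measured at 7.58 and 6.82 TPM in *Shh*-/- larynx and at 8.43 and 17.5 TPM in WT. The mutant pools were nearly equal, and the lower WT pool lay just above them. The difference of −0.69 (SE 0.34, adjusted p = 0.279 in limma) depended on which WT pool was kept, at −0.20 without WT replicate 6 and −1.18 without WT replicate 4. *Krt5*, a basal keratin, was at 0.672 and 0.932 TPM in *Shh*-/- larynx and at 1.86 and 2.78 TPM in WT larynx (adjusted p = 0.144 in limma). The list of 10 surface ectoderm and basal epithelial genes that holds it had 7 tested genes, 4 higher and 3 lower, with a median of 0.70. That median was 0.29 without WT replicate 6, 0.36 without *Shh*-/- replicate 1 and 1.11 without WT replicate 4, and it was 0.20 with no filter, 0.22 with the GC and length correction and 2.15 at an average of 5 TPM or more. Its 1 called gene was *Wnt6*, a WNT ligand of surface ectoderm, at 20.5 and 15.7 TPM in *Shh*-/- larynx and 3.13 and 2.84 TPM in WT larynx (log2 fold change 2.25, adjusted p = 0.0383 in limma). The list summed to 58.4 and 40.1 TPM in *Shh*-/- larynx and to 21.3 and 17.2 TPM in WT, none of its genes was listed at 0 in all libraries, and its part in the *Trp63* level was not tested.

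*Foxp1* (chromosome 6, 98925338 to 99522721, minus strand), the most abundant of the 9 genes, was at 34.3 and 61.7 TPM in *Shh*-/- larynx and at 89.2 and 72.3 TPM in WT. Both mutant pools were lower, but they differed from each other by more than the nearest WT pool did from the upper of them. The log2 fold change was −0.79 (SE 0.30, adjusted p = 0.194 in limma), −0.37 without *Shh*-/- replicate 1, the least deeply sequenced pool, and −1.20 without *Shh*-/- replicate 2. *Foxp2* (chromosome 6, 14901349 to 15441977, plus strand) was at 35.5 and 19.7 TPM in *Shh*-/- larynx and at 27.4 and 70.2 TPM in WT. Its groups overlapped, and its WT replicates were further apart in TPM than those of any other of the 9 genes. The estimate of −0.71 (SE 0.51, adjusted p = 0.412 in limma) was −0.05 without WT replicate 6, −1.37 without WT replicate 4, −0.30 without *Shh*-/- replicate 2 and −1.12 without *Shh*-/- replicate 1. The ratio of *Foxp2* to *Foxp1* was 1.04 and 0.319 in *Shh*-/- larynx and 0.307 and 0.972 in the WT pools, so that it varied within a genotype as much as between them. *Foxp4*, the third FOXP gene of the airway, was at 75.8 and 99.3 TPM in *Shh*-/- larynx and at 101 and 81.1 TPM in WT, with groups that overlapped.

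*Foxp1* and *Foxp2* are also made outside the epithelium, and the gene lists of other cell types differed between the groups. All 9 neuron genes were higher in *Shh*-/- larynx and 5 of them passed the test, with a median of 1.77 and summed levels of 503 and 545 TPM against 154 and 118 TPM. Of 7 cardiac muscle genes 6 were tested, 5 higher and 1 lower with a median of 1.84, and 2 rose, with sums of 144 and 200.5 TPM against 65.9 and 69.9 TPM and 1 gene listed at 0 throughout. All 5 endothelial genes were higher, 1 of them past the threshold, with a median of 0.73 and sums of 258 and 291 TPM against 175 and 168 TPM. The summed levels of these 3 lists were higher in both mutant pools, while the cardiac gene *Nkx2-5* was lower, at 5.97 and 4.73 TPM against 18.5 and 13.6 TPM in WT (adjusted p = 0.0697 in limma). The 10 foregut mesenchyme genes summed to 466 and 425 TPM against 383 and 374 TPM, yet 6 of them were lower, with a median of −0.85 (−0.27 without *Shh*-/- replicate 1 and −1.44 at an average of 5 TPM or more), and *Foxf2* fell while *Twist1* rose past the threshold. The part of these cell types in the *Foxp1* and *Foxp2* levels was not tested.

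*Foxe1* (chromosome 4, 46343609 to 46346412, plus strand) was low and uneven, at 3.28 and 0.318 TPM in *Shh*-/- larynx and at 5.72 and 7.96 TPM in WT. Both mutant pools were below WT, and the lower of them rested on a mean coverage of 0.496-fold. The log2 fold change was −1.71 (SE 0.59, adjusted p = 0.172 in limma), −0.86 without *Shh*-/- replicate 2 and −2.56 without *Shh*-/- replicate 1. *Foxe1*, *Nkx2-1*, *Pax8* and *Hhex* are together the known transcription factors of the early thyroid, and the 4 genes differed in direction. *Pax8* was at 14.8 and 9.56 TPM in *Shh*-/- larynx and at 1.43 and 0 TPM in WT larynx (log2 fold change 3.05, SE 0.48, adjusted p = 0.0719 in limma). *Hhex* was at 13.1 and 7.06 TPM in *Shh*-/- larynx and at 3.97 and 3.20 TPM in WT larynx (log2 fold change 1.22, adjusted p = 0.124 in limma). Both were thus higher in the mutant pools, without overlap, where *Foxe1* and *Nkx2-1* were lower. *Pax8* is also known from otic and kidney tissue, and *Hhex* from endothelium.

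The order of the 9 genes by mean level differed between the genotypes. In the WT pools *Foxp1* led at 80.8 ± 12 TPM (SD, n = 2). *Foxp2* (48.8 ± 30.3), *Sox2* (43.4 ± 5.49), *Foxa2* (34.5 ± 7.51) and *Foxa1* (31.7 ± 8.59) followed. In WT replicate 6 *Foxp2* was only just below *Foxp1*, at 70.2 against 72.3 TPM. The ranges of neighbours among these 4 overlapped over the pools, although within each WT pool *Sox2* was above *Foxa2* and *Foxa2* above *Foxa1*. *Nkx2-1* (16.9 ± 1.40) and *Trp63* (13.0 ± 6.42) also overlapped, and *Foxe1* (6.84 ± 1.59) and *Foxa3* (1.38 ± 0.97) came last, each apart from the gene above it. In the *Shh*-/- pools *Foxp1* (48.0 ± 19.4) and *Sox2* (45.1 ± 10.1) overlapped at the top. *Foxp2* (27.6 ± 11.2) came next, below *Sox2* in both pools but above *Foxp1* in the first. *Foxa1* (15.0 ± 0.761) and *Foxa2* (7.23 ± 2.68) followed, each below the gene before it in both pools, and *Trp63* (7.2 ± 0.54) was level with *Foxa2*. *Nkx2-1* (4.88 ± 1.81), *Foxe1* (1.80 ± 2.1) and *Foxa3* (0.058 ± 0.082) closed the order, each below the gene just before it, although *Nkx2-1* overlapped *Foxa2*. *Foxa2* was above *Trp63* in both WT pools and on either side of it in the mutant pools.

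The 24 general epithelial genes, which encode keratins, junction proteins and epithelial splicing factors, were taken as a reference level for epithelial transcripts in each pool. They do not separate laryngeal epithelium from pouch or surface epithelium, so the epithelium behind them need not be the same in both genotypes. All 24 were tested and 0 passed in limma, 17 of them higher and 7 lower in *Shh*-/- larynx, with a median log2 fold change of 0.12. They summed to 1220.2 and 1009.8 TPM in *Shh*-/- larynx and to 1032 and 1000.1 TPM in WT, and none was listed at 0 in all libraries. *Epcam*, a surface protein of most epithelia, was at 123 and 101 TPM against 90.3 and 86.4 TPM, and *Cdh1*, which encodes E-cadherin, was at 41.1 and 25.9 TPM against 45.2 and 43.2 TPM. Set against the mean log2 level of these genes in the same pool, *Foxa2* was at −2.49 and −1.47 in *Shh*-/- larynx and at 0.04 and 0.46 in WT, a difference of −2.23. The same difference was −1.74 for *Nkx2-1*, −1.11 for *Foxa1*, −1.81 for *Foxe1* and −0.06 for *Sox2*. *Foxa2*, *Nkx2-1* and *Foxa1* were thus below WT by a similar amount relative to epithelial transcripts and relative to all transcripts. In whole-larynx RNA, fewer cells of a type and less RNA per cell cannot be told apart.

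**Figure D3:**
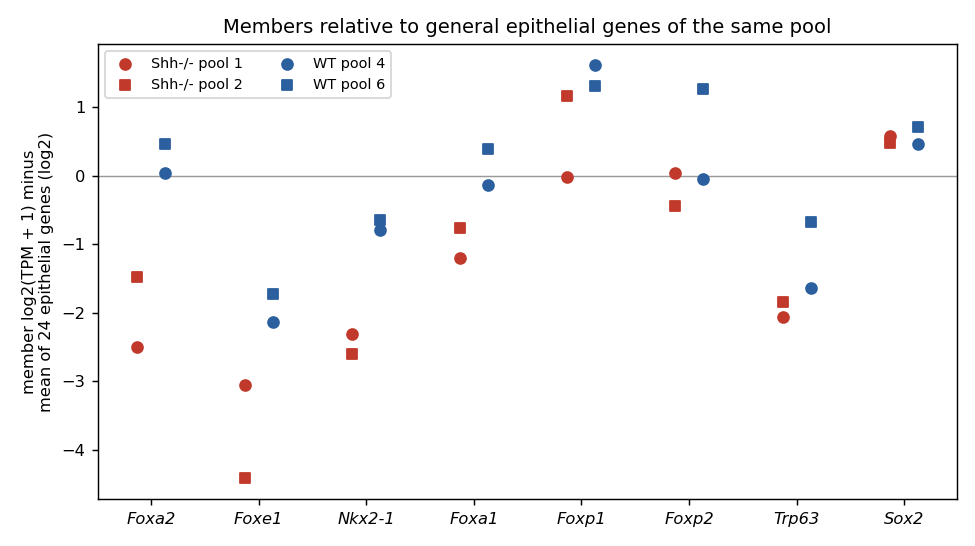
Log2(TPM + 1) of each of the 8 tested genes minus the mean log2(TPM + 1) of the 24 general epithelial genes in the same pool, for 2 *Shh*-/- and 2 WT pools. *Foxa2* lies at −2.49 and −1.47 in *Shh*-/- larynx and at 0.04 and 0.46 in WT, while *Sox2* lies between 0.46 and 0.71 in all 4 pools.

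The other transcription factors of foregut endoderm and of epithelia were set beside the 9 genes as background. Of 16 other foregut endoderm transcription factors, all tested, 0 passed in limma, 10 were higher and 6 lower, and their median was 0.16, which was 0.059 without WT replicate 6, 0.023 with quantile normalization and 0.031 with median centring and turned to −0.165 with the GC and length correction. *Isl1* was at 68.3 and 57.3 TPM in *Shh*-/- larynx against 93.1 and 116 TPM in WT larynx (adjusted p = 0.104 in limma). *Sox21* went the other way at 8.58 and 7.54 TPM against 3.29 and 4.23 TPM (adjusted p = 0.0993 in limma), and *Sox9* was nearly level at 26.5 and 25.5 TPM against 28.6 and 23.0 TPM. Of 12 epithelial transcription factors 9 were tested and 0 passed, 6 higher and 3 lower, with a median of 0.08 whose sign turned with quantile normalization (−0.075), median centring (−0.050), the GC and length correction (−0.137) and without WT replicate 4 (−0.032). *Grhl2*, a regulator of epithelial junctions, was at 12.3 and 9.66 TPM in *Shh*-/- larynx and at 9.45 and 11.2 TPM in WT. Airway and thyroid epithelial genes were mostly under the filter at this stage, with 4 of 16 tested (3 higher and 1 lower, median 0.29, −0.069 with no filter, 0 past the threshold) and 4 listed at 0 in every library. *Cldn18*, a junction gene of the lung under the filter and so not tested, was listed at 0 in both *Shh*-/- pools and measured 0.944 and 1.61 TPM in WT. Among the tested genes of that list, *Etv5* was at 32.6 and 31.8 TPM in *Shh*-/- larynx against 21.9 and 21.4 TPM in WT. *Etv4* was likewise higher, at 30.3 and 27.8 TPM against 19.2 and 6.74 TPM, and the groups overlapped for *Abca3* and *Tshr*.

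The neighbours of the foregut in the dissected tissue were also followed. Of 11 pharyngeal pouch genes 9 were tested, 8 higher and 1 lower, with a median of 1.0. The list summed to 256 and 215 TPM in *Shh*-/- larynx and to 139 and 107 TPM in WT. *Pax1*, a pouch endoderm gene, was at 30.1 and 9.67 TPM in *Shh*-/- larynx and at 1.08 and 0.40 TPM in WT larynx (adjusted p = 0.0736 in limma). Pouch genes were thus mostly at higher levels where *Foxa2*, *Nkx2-1* and *Foxe1* were at lower ones, and the part of pouch tissue in those levels was not tested. *Foxa2* is also made by floor plate and notochord, and of 8 genes of these structures 5 were tested, 4 higher and 1 lower with a median of 0.35 (0.032 at an average of 5 TPM or more), 0 passed, and the list summed to 34.5 and 38.6 TPM in *Shh*-/- larynx and to 31.1 and 34.8 TPM in WT.

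**Figure D4:**
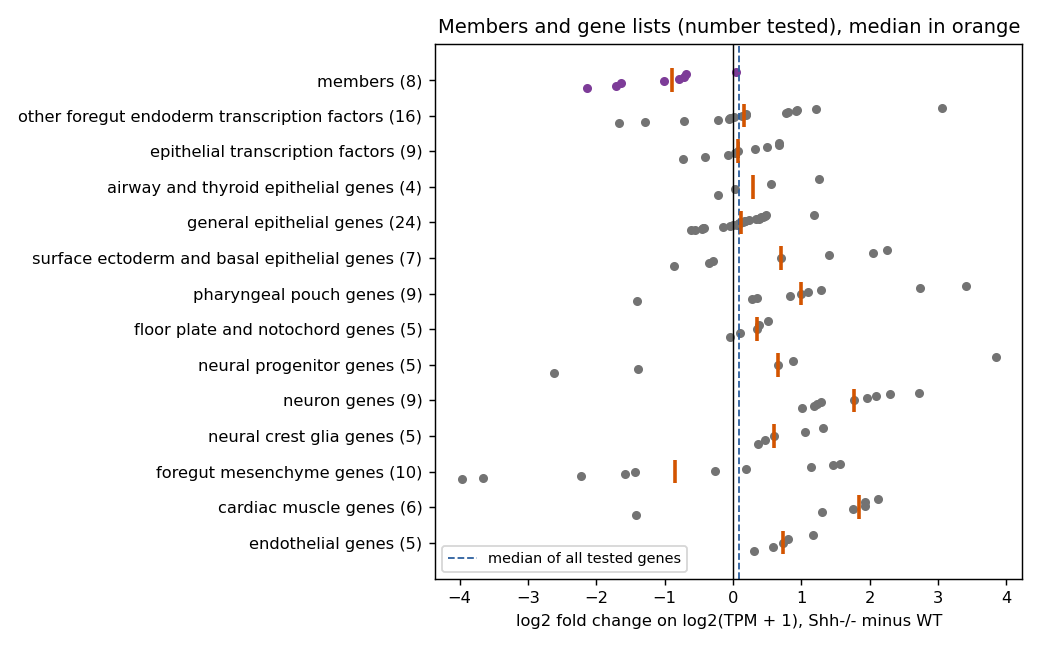
Log2 fold change (*Shh*-/- minus WT) of every tested gene of each list, 1 point per gene, with an orange bar at the list median and a dashed line at the median of all tested genes. The 8 tested foregut transcription factors have a median of −0.90, the 24 general epithelial genes 0.12 and the 9 neuron genes 1.77.

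Genes next to the 9 loci were read for levels and for shared reads. Within 100 kb of a member lay 61 genes, of which 22 were tested. The noncoding gene *9030622O22Rik*, 2674 bp from *Foxa2* on the same strand, was at 0.880 and 1.43 TPM in *Shh*-/- larynx and at 4.93 and 7.93 TPM in WT larynx (log2 fold change −1.77, SE 0.29, adjusted p = 0.0749 in limma). *4921506M07Rik*, 17992 bp from *Foxa1* on the opposite strand, was at 0.613 and 1.28 TPM against 2.84 and 3.83 TPM (log2 fold change −1.17, SE 0.28, adjusted p = 0.114 in limma). *Mipol1*, which lies 43432 bp from *Foxa1*, was at 5.08 and 6.53 TPM against 8.62 and 10.3 TPM (adjusted p = 0.156 in limma). These 3 neighbours were lower in both mutant pools, as 22.7% of all tested genes were. Another, *Gm14108*, 24377 bp from *Foxa2* on the same strand, was at 2.68 and 1.85 TPM in *Shh*-/- larynx and at 3.15 and 2.1 TPM in WT, and its groups overlapped (adjusted p = 0.739 in limma). The 1 neighbour past the threshold was *Gm12445*, 68769 bp from *Foxe1*, which was listed at 0 in both mutant pools and reached 7.10 and 7.01 TPM in WT larynx (adjusted p = 0.0323 in limma). The 10 tested neighbours of *Foxa3* all had fold changes above 0, from 0.06 to 0.61, as had 9895 of all 16972 tested genes. None of them passed the threshold, and the groups overlapped for *Gm4969* and *Mypopos*. *Foxa3* itself was lower in both mutant pools but was not tested. Reads could also be shared with 10 genes that overlapped a member, none above 2.68 TPM in any library, among them *Sox2ot*, which contains *Sox2* on the same strand and measured 1.02 and 0.667 TPM in *Shh*-/- larynx and 1.36 in each WT pool. Whether the authors' estimation used strand is not given in the sources used here.

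**Figure D5:**
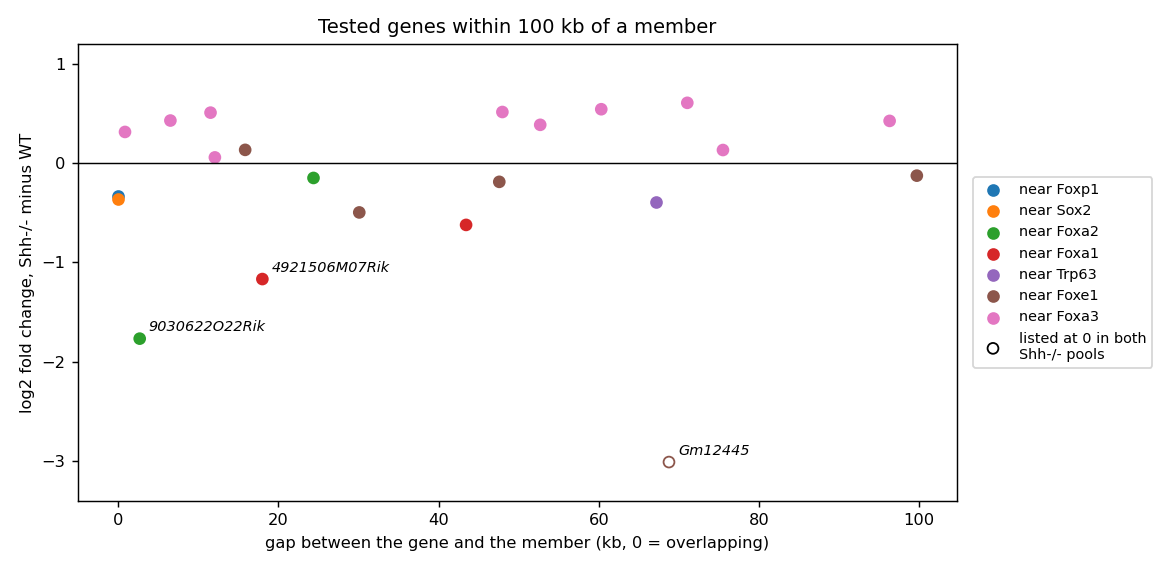
Log2 fold change (*Shh*-/- minus WT) of the 22 tested genes within 100 kb of one of the 9 genes, against the gap between them in kb, coloured by the gene they lie near. *9030622O22Rik* near *Foxa2* lies at −1.77, the neighbours of *Foxa3* all lie above 0, and the open point is *Gm12445*, whose fitted value rests on 0 TPM in both *Shh*-/- pools.

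For 4 of the genes the tested genes nearest in pattern over the 4 libraries were found by the Euclidean distance between centred log2(TPM + 1) values. *Cldn11* (distance 0.169), a tight junction gene, *Kcnk16* (0.263) and *Zcchc5* (0.300) lay nearest to *Foxa2*. *Zfp931* (0.139), *Gm26457* (0.311) and *Gm43078* (0.367) lay nearest to *Nkx2-1*. *Rdm1* (0.0365), *Tubgcp5* (0.0389) and *Zfp709* (0.0413) lay nearest to *Sox2*, and *Arg1* (0.13), *Lox* (0.143) and *AC156028.1* (0.143) to *Foxp1*. *Sox2* itself differed little among the 4 libraries, and with so few libraries nearness says only that the levels ran in parallel.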

How the data were processed

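Total RNA of 4 pools of 3 larynxes was DNase treated, selected for poly(A), made into directional libraries and sequenced by the authors. Per the labels, reads were mapped to mm10 with HISAT2 (version 2.1.0) and assembled with StringTie (version 1.3.6). For each gene the authors deposited a read coverage averaged over its bases, FPKM, which the authors' software obtains from coverage and aligned bases, and TPM, which it scales to 1000000 per library. Aligned bases were read back from the ratio of coverage to FPKM. The tables hold no read counts, so no counting interval was computed.

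TPM was summed per gene ID. The *Shh*-/- and WT pools were compared with limma (version 3.58.1, R 4.3.3; lmFit, eBayes with trend) on log2(TPM + 1) for genes averaging 1 TPM or more, two-sided, with Benjamini-Hochberg adjustment over all tested genes. The labels do not say that pools came from separate litters, so p-values measure the spread between these pools only. GENCODE M21 gave transcript length and GC content. The script was tested on simulated data. The 9 genes and all lists were chosen with earlier results of these data known. Named genes were the 9 genes, *Shh*, *Ptch1*, members of the lists, tested genes within 100 kb and the 3 nearest in pattern to 4 of the genes. Alternatives were the pseudocount (0.1), the filter (none, or an average of 5 TPM), quantile normalization, median centring, FPKM, no trend, a GC and length correction and each pool left out. Single values of some listed genes are not reported here.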

Additional observations from a re-analysis of the deposited data

How the results depend on the processing

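None of the 9 genes that were tested passed an adjusted p under 0.05 in any of the 12 alternatives. *Foxa2* ranged from −2.47 to −1.79 (adjusted p 0.0571 to 0.240 in limma), *Nkx2-1* from −2.0 to −1.32 (0.0536 to 0.291) and *Foxa1* from −1.31 to −0.73 (0.0958 to 0.315), and the 7 genes that were lower stayed below 0 wherever they were tested (*Foxe1*, under the filter of 5 TPM, in 11 alternatives). *Sox2* turned to −0.038 with quantile normalization, −0.088 with median centring, −0.077 with the GC and length correction, −0.18 without *Shh*-/- replicate 1 and −0.09 without WT replicate 4, within a range of −0.18 to 0.27 with a pool left out. Median centring moved the median of all tested genes from 0.08 to −0.05. The median of the 8 tested genes ranged from −1.33 (without WT replicate 4) to −0.84 with a pool left out, and that of the general epithelial genes from −0.034 to 0.32, and to −0.072 with the GC and length correction.

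Over all genes, the 123 called became 69 with a pseudocount of 0.1 (53 higher, 16 lower) and 82 at an average of 5 TPM or more (63 higher). Without the filter 0 were called in limma, among 28524 tested genes with 5011 at an unadjusted p under 0.05. With 1 pool left out 0 to 16 were called (0 to 4 higher, 0 to 12 lower), on fewer samples. Of the calls, 95 were higher and 28 lower, against 92 and 35 with median centring and 75 and 36 with the GC and length correction. Other causes were not tested. No paired analysis was possible because the groups share no replicate numbers. With 2 pools per genotype and no counts, low genes such as *Foxa3* and *Foxe1* are the least certain.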
